A study of Mus musculus with 6 samples.

Results

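A set of 9 genes of antigen presentation by class I molecules of the major histocompatibility complex (MHC), and of its control by interferon, was followed through the first days of neural differentiation. They are the transcriptional regulators Irf1 and Nlrc5, the proteasome subunits Psmb8 and Psmb9, the peptide transporter and loading genes Tap1, Tap2 and Tapbp, and the class I chains B2m and H2-D1. They were listed by name, with intensities of these same arrays already known, and each probe whose RefSeq accession maps to 1 of them is given. That made 9 of 20274 named genes and 11 of 55646 probes. Because the intensities of all 3 groups stood behind the choice, the values of these 9 genes are a description and carry no test.

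The cells were mouse epiblast stem cells (EpiSCs) of strain 129/Sv, which are pluripotent cells taken from the epiblast after implantation. The groups were cells kept in their epiblastic maintenance condition (EpiSC), cells held for 1 day in a neural plate developmental condition (NPC1) and cells held there for 2 days (NPC2). Cultures A and B of every group, 2 in each, came from 1 seed culture; the p-values therefore reflect the spread between such duplicates alone, which may be technical. Their total RNA, labelled with Cy3, was read on 1-colour Agilent arrays. All 6 arrays lay on 1 slide, signal was well above background at 58.2% to 61.1% of 59305 non-control spots, and 0 were saturated. The number of arrays limits the precision: duplicates correlated at r = 0.9971 to 0.9975 across genes, and a log2 change had a median standard error (SE) of 0.0678. The cell identity on the labels could be followed in most of its markers. Of 11 epiblast markers, 9 fell and 2 rose in NPC2 against EpiSC, and 9 fell and 1 rose in NPC1 (limma, adjusted p under 0.05). Of 10 neural plate markers, 10 rose in NPC2 and 7 in NPC1. The shares of all genes that fell and rose were 40.7% and 28.3% in NPC2, and 29% and 21.3% in NPC1. Pou5f1, the pluripotency factor, fell to 5079.9 and 4940.5 in NPC2, against 28623.9 and 32047.6 in EpiSC (log2 change -2.66 ± 0.073 SE, limma adjusted p = 1.6e-05). Sox1, a neural plate factor, stood at 2560.8 and 2472.2 in NPC2, against 47.5 and 43.8 in EpiSC (log2 change 5.72 ± 0.059 SE, limma adjusted p = 5.9e-06). In these bulk cultures, fewer cells of a type and less RNA per cell cannot be told apart.

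Class I molecules carry peptides from inside the cell to its surface, where T cells inspect them. The peptides are cut by the proteasome, whose constitutive catalytic subunits are exchanged under interferon for the inducible ones of the immunoproteasome. They are pumped into the endoplasmic reticulum by the Tap1-Tap2 transporter, held to the class I heavy chain by tapasin (Tapbp), and displayed once the heavy chain has paired with beta-2-microglobulin (B2m). Interferon signals through JAK-STAT to Irf1, and Irf1 and Nlrc5 act on the promoters of these genes. Class I genes are known for low surface levels in early embryonic and neural cells.

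The promoters of the 9 genes are shown because the classical interferon sequences lie in some and not in others. RefSeq windows of GRCm38.p6, given 5′ to 3′ on the gene's strand for the 250 bases before the start, were available for 7 of the 9 genes; the reference genome is not of strain 129/Sv. Capitals mark matches, on either strand, to an interferon-stimulated response element (ISRE, GAAANNGAAA), a gamma-activated site (GAS, TTCNNNGAA), a CRE core (TGACG) or a CCAAT box (CCAAT). Psmb9 and Tap1 are transcribed away from each other, and the 225 bases between their starts are given once, on the Tap1 strand.
Irf1, first start, chr11:53769764-53770013, plus strand: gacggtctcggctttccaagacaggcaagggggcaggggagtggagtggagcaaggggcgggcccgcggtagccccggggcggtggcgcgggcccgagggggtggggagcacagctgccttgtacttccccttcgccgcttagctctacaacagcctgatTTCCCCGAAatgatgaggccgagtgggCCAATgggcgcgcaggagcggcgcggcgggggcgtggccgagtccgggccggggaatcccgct
Psmb8, chr17:34197945-34198194, plus strand: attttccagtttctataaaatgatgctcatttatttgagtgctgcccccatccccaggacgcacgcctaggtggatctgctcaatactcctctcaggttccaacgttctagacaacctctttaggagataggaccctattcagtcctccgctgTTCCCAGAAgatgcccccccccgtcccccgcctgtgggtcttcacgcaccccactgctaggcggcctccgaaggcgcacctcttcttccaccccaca
Psmb9 and Tap1 interval, chr17:34187331-34187555, plus strand: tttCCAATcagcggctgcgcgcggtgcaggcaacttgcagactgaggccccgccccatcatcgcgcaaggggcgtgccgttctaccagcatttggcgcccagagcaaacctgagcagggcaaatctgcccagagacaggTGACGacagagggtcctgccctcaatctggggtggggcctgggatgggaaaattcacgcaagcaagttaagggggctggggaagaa
Tapbp, chr17:33919228-33919477, plus strand: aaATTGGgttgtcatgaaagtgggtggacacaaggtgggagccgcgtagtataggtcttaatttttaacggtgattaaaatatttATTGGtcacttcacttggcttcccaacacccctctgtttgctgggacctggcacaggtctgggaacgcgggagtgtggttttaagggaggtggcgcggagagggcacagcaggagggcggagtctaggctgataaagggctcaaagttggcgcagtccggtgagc
B2m, chr2:122147437-122147686, plus strand: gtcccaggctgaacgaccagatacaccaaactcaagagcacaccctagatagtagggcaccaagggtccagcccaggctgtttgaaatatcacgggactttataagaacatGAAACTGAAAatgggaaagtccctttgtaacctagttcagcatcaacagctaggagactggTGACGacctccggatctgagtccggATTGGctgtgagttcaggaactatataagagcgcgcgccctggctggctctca
H2-D1, chr17:35262844-35263093, plus strand: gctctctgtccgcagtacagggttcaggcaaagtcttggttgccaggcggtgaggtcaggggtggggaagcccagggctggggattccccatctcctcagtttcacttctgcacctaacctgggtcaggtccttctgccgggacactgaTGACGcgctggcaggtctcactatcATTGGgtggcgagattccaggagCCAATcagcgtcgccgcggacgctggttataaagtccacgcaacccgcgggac

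The ISRE letters were found in 1 of these sequences, that of B2m, from -139 to -130 relative to the start, and in 3.44% of all 32851 windows of the same table. Shares of all windows, here and for the lists below, were counted over 250 bases before and 50 bases after the start. They therefore come from longer sequences than those printed. The GAS letters were found in the window of Irf1, from -90 to -82, and in that of Psmb8, from -97 to -89, against 8.3% of all windows. B2m and H2-D1 both held a CRE core followed by a CCAAT box, at -78 and -53 in B2m and at -101 and -76 in H2-D1. The Psmb9 and Tap1 interval held both as well. From the Psmb9 start they lay in the same order, at -144 and -8. From the Tap1 start they lay in the other order, the CRE core at -86 and the CCAAT box at -222. A CRE core occurred in 20.81% and a CCAAT box in 37.41% of all windows. A looser NF-kB pattern, GGGNNNNNCC, was left in lower case because 50.79% of all windows held it. A second Irf1 start, chr11:53770223-53770472, had 0 matches to any of these letters. Each match is a description of letters, and a window without a match says nothing about the factor.

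Irf1, the transcription factor that interferon-gamma induces, stood far lower in the neural plate condition. Its brighter probe, A_55_P2000062, read 9375 and 9370 in EpiSC, 1695 and 1690 in NPC1, and 713.9 and 668.5 in NPC2 (processed intensity, not scaled between arrays, cultures A and B). Both EpiSC arrays lay far above all 4 others, and both NPC2 arrays lay below both NPC1 arrays. After scaling each array to its 75th percentile, the log2 difference was -2.46 ± 0.047 for NPC1 against EpiSC and -3.83 ± 0.041 for NPC2 against EpiSC (SD, n = 2 each), or 5.5-fold and 14.2-fold lower. A second Irf1 probe, A_55_P2000067, for another transcript, was well above background on 1 array alone and did not pass the filter on dim probes. It read 16.71 and 9.69 in EpiSC, 4.421 and 3.448 in NPC1, and 5.693 and 5.077 in NPC2, and no fold is given for it.

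Nlrc5, the class I transactivator, was dim and followed another course. Probe A_55_P2016034 read 52.03 and 50.08 in EpiSC, 63.77 and 65.34 in NPC1, and 32.24 and 26.53 in NPC2, well above background on all 6 arrays. NPC1 was the highest group and NPC2 the lowest, with no overlap among the 3 groups. The log2 difference was 0.35 ± 0.04 for NPC1 against EpiSC, -0.87 ± 0.14 for NPC2 against EpiSC and -1.21 ± 0.14 for NPC2 against NPC1 (SD, n = 2 each). The size of the NPC2 difference depended on the handling of background and was -0.30 after normexp background correction, where NPC2 against NPC1 was -0.50. The second probe, A_66_P113043, read 20.17 and 15.2 in EpiSC, 15.93 and 20.8 in NPC1, and 7.844 and 11.45 in NPC2. Its NPC1 and EpiSC arrays overlapped (log2 difference 0.06 ± 0.25, with a sign that turned between -0.14 and 0.27 when single arrays were left out), so the NPC1 rank of Nlrc5 rests on 1 probe. For NPC2 against EpiSC it gave -0.95 ± 0.35, with 1 of 2 NPC2 arrays well above background.

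Psmb8, the inducible chymotrypsin-like subunit that replaces Psmb5, showed the largest difference of the 9 genes. Its probe read 4144 and 4174 in EpiSC, 381.7 and 430.1 in NPC1, and 167.8 and 154.5 in NPC2. The 3 groups did not overlap and stepped down at each time. Psmb8 was 10.2-fold lower in NPC1 than in EpiSC (log2 difference -3.35 ± 0.042) and 27.0-fold lower in NPC2 than in EpiSC (-4.75 ± 0.053; SD, n = 2 each). Psmb9, the inducible subunit that replaces Psmb6, read 1319 and 1423 in EpiSC, 765.5 and 820.9 in NPC1, and 720.0 and 682.9 in NPC2. All EpiSC arrays lay above all others. The difference was smaller than that of Psmb8, 1.72-fold lower in NPC1 (log2 -0.78 ± 0.053) and 2.04-fold lower in NPC2 (-1.03 ± 0.061) than in EpiSC, and it fell short of 2-fold under some alternatives, which gave -1.11 to -0.81 for NPC2.

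**Figure D1:**
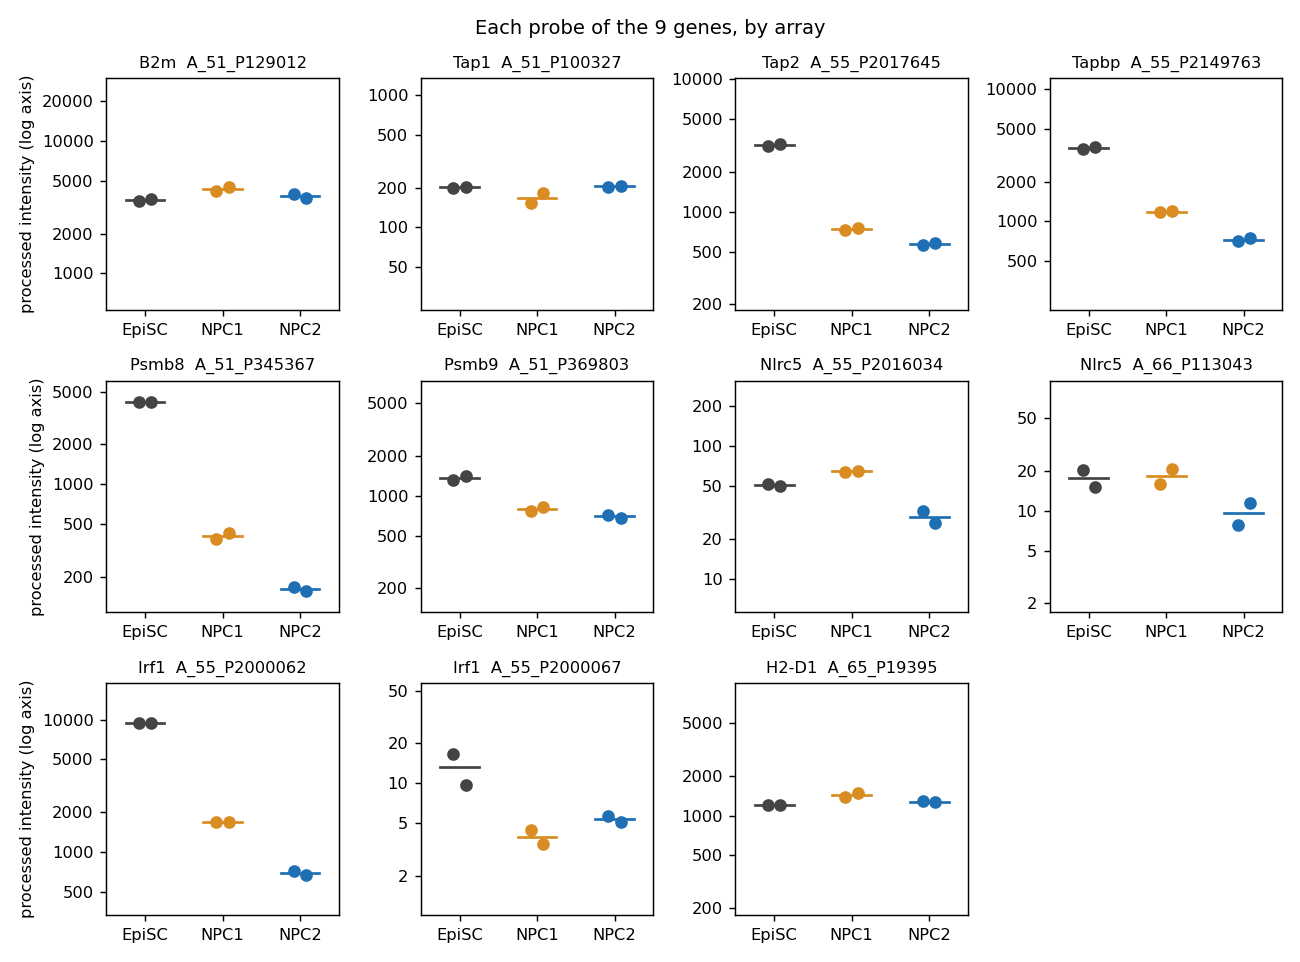
Processed intensity (log axis, not scaled between arrays) of each probe of the 9 genes in EpiSC, NPC1 and NPC2; points are the 2 arrays of a group and the line is their mean, and every panel spans the same ratio. Irf1, Psmb8, Tap2 and Tapbp step down, with Psmb8 at 4144 and 4174 in EpiSC and at 167.8 and 154.5 in NPC2, while B2m, H2-D1 and Tap1 stay within a narrow band.

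Tap1 and Tap2, the chains of the peptide transporter, did not move together. Tap2 read 3149 and 3271 in EpiSC, 733.7 and 754.1 in NPC1, and 562.9 and 576.7 in NPC2. Its groups did not overlap, and most of the difference was present after 1 day: it was 4.29-fold lower in NPC1 (log2 -2.10 ± 0.035) and 5.89-fold lower in NPC2 (-2.56 ± 0.035) than in EpiSC. Tap1 was printed as 10 spots per array, which varied by 3.83% to 5.15% within an array (coefficient of variation). It read 199.7 and 202.5 in EpiSC, 154.2 and 182.2 in NPC1, and 203.5 and 206.6 in NPC2. NPC1 lay below both other groups, by a log2 difference of -0.25 ± 0.076 against EpiSC. For NPC2 against EpiSC the Tap1 difference was -0.04 ± 0.019, and its sign turned with the scaling, from -0.12 to 0.19 over all alternatives. Tap1 shares its short upstream interval with Psmb9, whose intensity in NPC2 was 2.04-fold lower than in EpiSC.

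Tapbp, the gene of tapasin, read 3508 and 3628 in EpiSC, 1176 and 1198 in NPC1, and 710.5 and 747.2 in NPC2. The groups stepped down with no overlap. It was 2.99-fold lower in NPC1 (log2 -1.58 ± 0.038) and 5.12-fold lower in NPC2 (-2.36 ± 0.048) than in EpiSC.

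The class I chains themselves were nearly level. B2m read 3515 and 3658 in EpiSC, 4212 and 4493 in NPC1, and 3967 and 3732 in NPC2. H2-D1, a classical class I heavy chain, read 1193 and 1202 in EpiSC, 1381 and 1482 in NPC1, and 1285 and 1255 in NPC2. Both were highest in NPC1, with a log2 difference against EpiSC of 0.29 ± 0.027 for B2m and 0.27 ± 0.0072 for H2-D1. For NPC2 against EpiSC the difference was 0.04 ± 0.046 for B2m, whose scaled groups overlapped, and 0.02 ± 0.011 for H2-D1. Both signs turned with the scaling, from -0.05 to 0.26 for B2m and from -0.06 to 0.24 for H2-D1. Class I heavy chains are near-identical in sequence and the probe sequences were not used here, so the H2-D1 probe may also read related chains.

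Scaling mattered for such small differences because it shifted all genes. In the authors' deposited value table the median log2 change of all genes was 0.13 for NPC2 against EpiSC, while it was -0.10 after 75th-percentile scaling and -0.18 after median scaling. Relative to that median, B2m lay at 0.14 in NPC2, with 0.10 to 0.22 over all alternatives, H2-D1 at 0.12, with 0.11 to 0.14, and Tap1 at 0.06, with -0.06 to 0.08. Psmb8 lay at -4.65, with -4.71 to -4.17, and Irf1 at -3.73, with -3.77 to -3.60.

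By their brightest probe, 4 of the 9 genes (Tap2, Tapbp, Psmb8 and Irf1) were at least 2-fold lower in NPC1 than in EpiSC with no overlap between groups, as were 4.06% of all 14772 genes. Psmb9 joined them in NPC2, which made 5 of 9, beside 10.5% of all genes. Between NPC2 and NPC1 it was 3 of 9 (Psmb8, Nlrc5 and Irf1), beside 6.46%. None of the 9 was 2-fold higher in any comparison, beside 4.69%, 9.88% and 4.98% of all genes for NPC1 against EpiSC, for NPC2 against EpiSC and for the second day against the first. Since the 9 were chosen with these values known, nothing is read from the shares.

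Other genes with the most similar course were found by the root mean square of the differences in scaled log2 intensity, each gene centred, over the 6 arrays, among 13545 genes. For B2m the nearest was H2-D1 (0.0231), and for H2-D1 B2m came second after Haus1 (0.0135). Psmb8 lay nearest to Gm9112 (0.148), Ifi35 (0.152) and Isg15 (0.187), the last a pair of interferon-stimulated genes. Psmb10, the remaining inducible proteasome subunit, was next for Tap2 (0.0761) after Rgcc (0.0491), and Ifitm3, an antiviral membrane gene, was among the nearest 3 for Tapbp (0.0639). Irf1 had Car2 (0.0952), Dync1i1 and Cdkn2a nearest, Psmb9 had Slc35f5 (0.0255), Rrn3 and Cd276, Nlrc5 had Derl3 (0.0581), and Tap1 had Pdf (0.0182). A small likeness value comes easily for genes that barely moved, such as B2m, H2-D1 and Tap1.

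The rest of the pathway was taken from 13 lists of 198 further genes, of which 163 were measured well enough to test. These lists were also chosen with earlier results of these data known. Their counts and medians, here and below, describe the listed genes and do not test the pathway as a set. In NPC1 against EpiSC, 78 of the 163 fell and 21 rose (limma, adjusted p under 0.05 over all genes), beside 29% of all genes that fell and 21.3% that rose. After 2 days, against EpiSC, 109 fell and 21 rose, beside 40.7% and 28.3% of all genes. The median log2 change of the 163 genes was -0.22 in NPC1 and -0.50 in NPC2, beside -0.05 and -0.10 for all genes. Of the calls made, 83.8% were falls in NPC2 and 78.8% in NPC1; with the scaling of the authors' deposited table these shares were 73.8% and 66.3%, while the share among all genes went to 38.8% in NPC2 and 37.9% in NPC1, against 59.0% and 57.7%. With quantile normalization 49.4% of all calls in NPC2 were falls, and with median scaling 71.0% of those in NPC1.

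**Figure D2:**
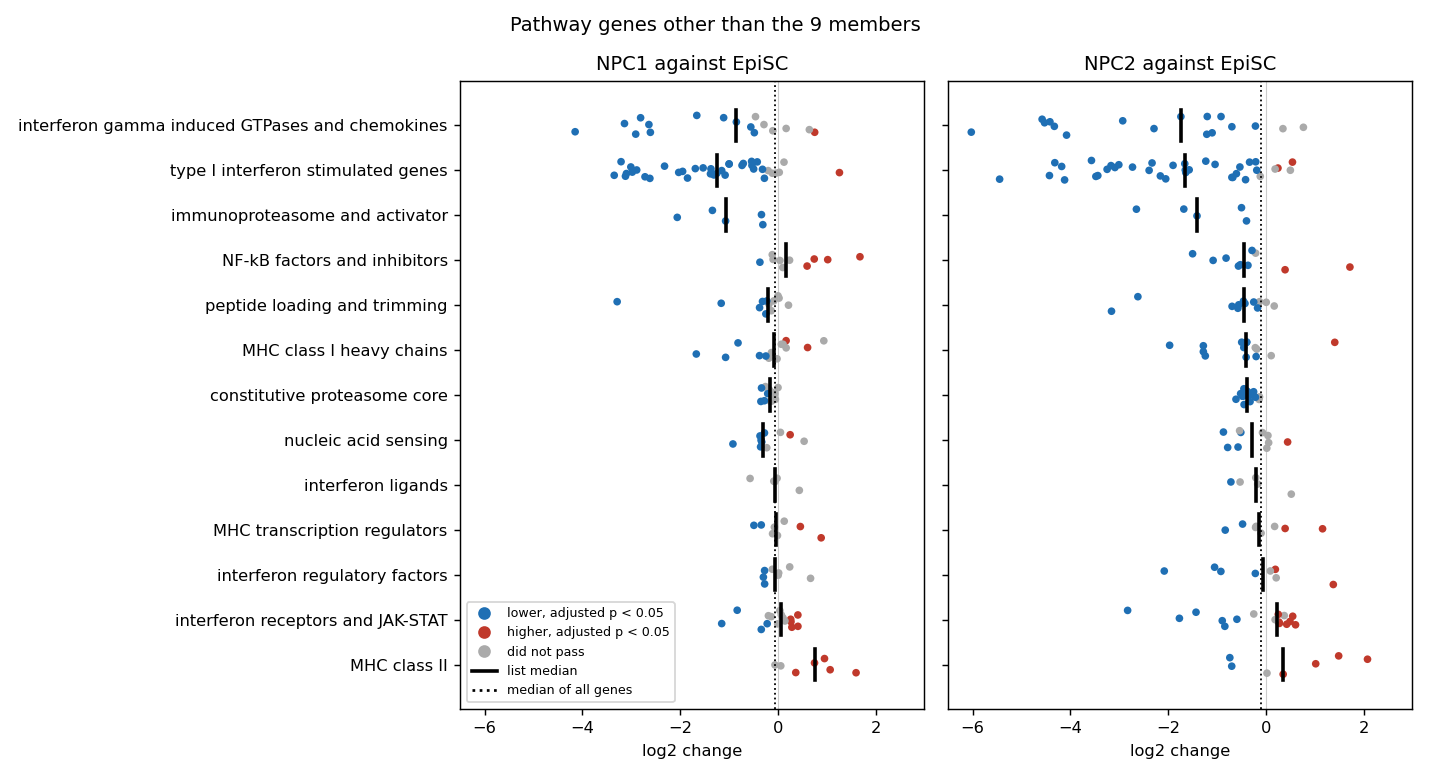
Log2 change of each tested gene of the 13 pathway lists, the 9 genes left out, for NPC1 against EpiSC (left) and NPC2 against EpiSC (right); blue points fell and red points rose at an adjusted p under 0.05, grey points did not pass, the bar is the list median and the dotted line the median of all genes. The 2 lists of interferon-stimulated genes lie lowest in NPC2, with medians of -1.74 (interferon-gamma) and -1.66 (type I), and MHC class II highest, with a median of 0.35.

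Most genes that type I interferon induces fell. Of 37 tested, 31 fell and 1 rose in NPC1, and 32 fell and 2 rose in NPC2, both against EpiSC. Of all genes, 29% fell and 21.3% rose in NPC1, and 40.7% fell and 28.3% rose in NPC2. The list's median log2 change was -1.25 and -1.66. With genes that dropped below background set at their bound, the medians were -1.15 and -1.65. Over the 31 genes well above background on all 6 arrays, 25 fell and 1 rose in NPC1, and 26 fell and 2 rose in NPC2. Their medians were -1 and -1.65. Isg15, a ubiquitin-like modifier, read 3756.2 and 3777.6 in EpiSC, 398.2 and 411.7 in NPC1, and 195.6 and 197.6 in NPC2, which was 20.0-fold lower in NPC2 than in EpiSC (log2 -4.32 ± 0.044 SE, limma adjusted p = 5.9e-06). Ifi35 was 21.6-fold lower in NPC2 than in EpiSC (-4.43 ± 0.08) and Oasl2, a member of the oligoadenylate synthetase family, 18.1-fold lower (-4.18 ± 0.077). Xaf1, an apoptosis gene, was not well above background on the NPC2 arrays and was at least 21.4-fold lower there. Here and below, such a bound sets the mean of the bright group against the dimmest signal that counted as measured on the dim arrays, or the dim probe's own where that was higher. Bst2, which tethers budding viruses, fell 3.74-fold in NPC2 against EpiSC (-1.90 ± 0.069) and 1.45-fold in NPC1.

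The exceptions among these genes were named after their values were seen. Ifit2, of a family that binds viral RNA, stood at 91.8 and 91.3 in NPC2, against 56.0 and 64.5 in EpiSC, and rose, with a log2 change of 0.54 (limma adjusted p = 0.0023). Ifitm2 rose by 0.25 in NPC2 against EpiSC, a call lost in 5 of 13 alternatives, among them without any 1 of the 4 arrays compared. Oas3 rose by 1.26 in NPC1 against EpiSC, a call lost without EpiSC replicate B or without NPC1 replicate B. Other falls, likewise chosen by sight, were Rtp4 (log2 -4.12 in NPC2 against EpiSC) and Ifih1, a cytoplasmic RNA sensor (-3.57). The promoters of this list carried the ISRE letters in 13 of 42 windows, or 30.95%, beside 3.44% of all windows.

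The GTPases and chemokines that interferon-gamma induces were also mostly lower than in EpiSC. Of 17 tested, 11 fell and 1 rose in NPC1, and 15 fell and 0 rose in NPC2 (limma, also 0 at an unadjusted p under 0.05), with list medians of -0.85 and -1.74 against EpiSC. The shares of all genes that fell and rose were 29% and 21.3% in NPC1, and 40.7% and 28.3% in NPC2. Gbp4, a guanylate-binding protein of cell-autonomous defence, read 290.8 and 281.5 in EpiSC, 14.3 and 17.9 in NPC1, and 5.4 and 3.9 in NPC2. Those NPC2 arrays were not well above background, and Gbp4 was at least 33.3-fold lower in NPC2 than in EpiSC. Gbp2 stood at 237.9 and 195.4 in NPC2, against 4698.5 and 5167.8 in EpiSC, and fell 23.9-fold (log2 -4.58 ± 0.11 SE, limma adjusted p = 1.3e-05). Tgtp2, a T-cell-specific GTPase, was at least 20.0-fold lower and Gbp7 at least 7.42-fold lower in NPC2 than in EpiSC. These GTPases have close paralogs, which their probes may also read. Cd274, the checkpoint ligand PD-L1, fell, with a log2 change of -1.20 ± 0.094 (limma adjusted p = 0.00032). The list's median in NPC2 depended on background handling, at -0.84 with normexp correction. Of the 17 genes, 3 were well above background on no array of 1 of the 2 groups, and such genes passed the filter through another group. Over the 13 genes well above background on all 6 arrays, 11 fell and 0 rose in NPC2 against EpiSC, with a median of -1.2. Over all alternatives the count of falls stayed between 11, those of the 13, and 15, and that of rises between 0 and 1. The ISRE letters were found in 10 of 16 windows of this list, or 62.5%.

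**Figure D3:**
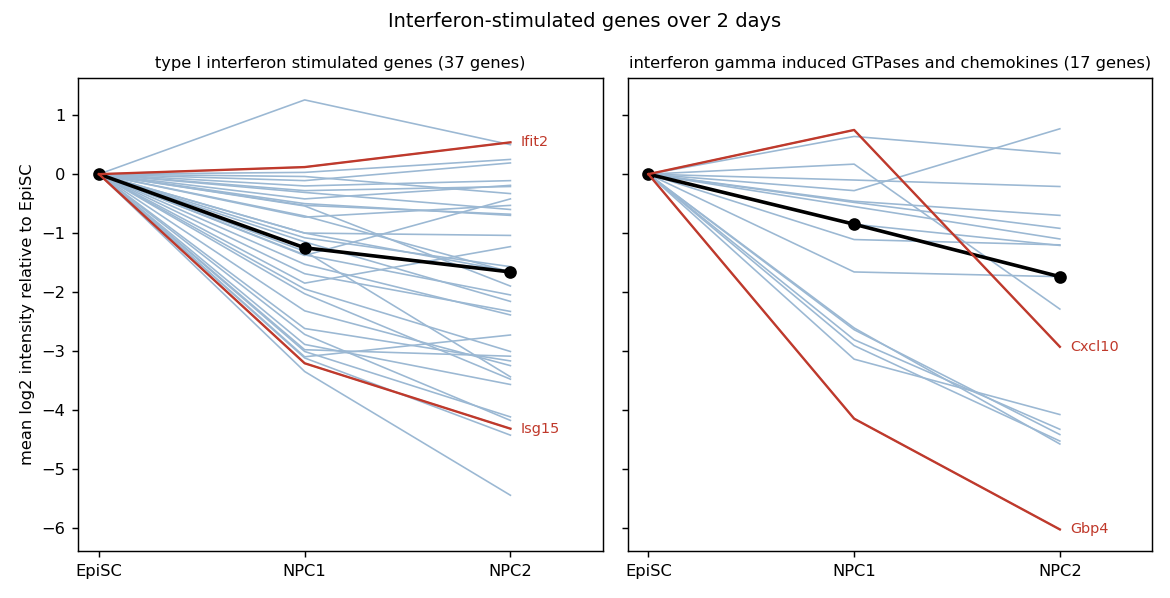
Mean log2 intensity relative to EpiSC of each tested gene of the type I interferon list (left, 37 genes) and the interferon-gamma list (right, 17 genes) in EpiSC, NPC1 and NPC2; the black line is the median and 2 genes a panel are in red. The medians reach -1.66 and -1.74 in NPC2, Isg15 and Gbp4 lie near the bottom, Ifit2 ends at 0.54, and Cxcl10 lies at 0.75 in NPC1 and at -2.93 in NPC2.

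Several interferon ligands were near background. Probes for Ifnb1 and Ifng, the genes of interferon-beta and interferon-gamma, were well above background on 0 of 6 arrays, with intensities between 2.3 and 2.7 and between 2.0 and 2.3. Of 5 ligand genes tested, 1 fell in NPC2 against EpiSC, beside 40.7% of all genes. It was Ifna2, at 13.2 and 11.7 in NPC2 against 21.4 and 17.8 in EpiSC (log2 -0.72 ± 0.11). The Irf7 probe, for an amplifier of type I interferon, was well above background on 0 of 6 arrays, at 1.9 to 6.5. No comparison is made with the probes of Ifnb1, Ifng and Irf7.

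The receptors and the rest of JAK-STAT signalling were split. Of 16 genes tested, 7 rose and 6 fell in NPC2 against EpiSC, with a list median of 0.22, and 5 rose and 4 fell in NPC1. Among all genes, 28.3% rose and 40.7% fell in NPC2, and 21.3% rose and 29% fell in NPC1. Ifngr1, the ligand-binding chain of the interferon-gamma receptor, stood at 242.6 and 199.7 in NPC2, against 779.5 and 663.8 in EpiSC, and fell, with a log2 change of -1.77 ± 0.12 (limma adjusted p = 0.0002). Its partner chain Ifngr2 rose by 0.25 ± 0.048, and Ifnar2, a chain of the type I receptor, rose by 0.61 ± 0.077. The other chain, Ifnar1, had a change of 0.19 and did not pass (limma adjusted p = 0.051). The feedback inhibitor Socs1 fell 7.11-fold in NPC2 against EpiSC (-2.83 ± 0.064, limma adjusted p = 1.2e-05), and Stat3 fell 2.7-fold (-1.43 ± 0.052). Stat2 rose by 0.49 ± 0.055. The kinases Jak1 and Jak2 rose by 0.27 and 0.28, calls that were lost in 2 and 3 of 13 alternatives: Jak1 without EpiSC replicate B or NPC2 replicate A, Jak2 without EpiSC replicate A or NPC2 replicate B and under median scaling.

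Among the other interferon regulatory factors, 4 of 8 fell and 2 rose in NPC2 against EpiSC, beside 40.7% and 28.3% of all genes. The list median was -0.06. Irf3, which carries signals from nucleic acid sensors, stood at 4255.7 and 4140.3 in NPC2, against 8204.7 and 8380.7 in EpiSC (log2 -1.05 ± 0.043, limma adjusted p = 4.3e-05). Irf2, an antagonist of Irf1 at shared sites, was dim and rose by 1.38 ± 0.27 on the log2 scale (limma adjusted p = 0.008), with 51.8 and 52.5 in NPC2 against 22.8 and 16.1 in EpiSC. Irf5 was at least 1.35-fold lower. Irf9, a DNA-binding partner of Stat2, fell (log2 -0.22 ± 0.051), but its sign turned with the scaling of the authors' deposited table, and the call was lost in 5 of 13 alternatives, the others being those without any 1 of the 4 arrays compared. Irf8, named after its value was seen, rose by 0.19, a call lost in 4 of 13, among them without either EpiSC array and without NPC2 replicate B.

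Of 8 genes for the factors that bind MHC promoters beside Nlrc5, 2 rose and 2 fell in NPC2 against EpiSC. Among all genes, 28.3% rose and 40.7% fell. Rfx5 and Rfxank are subunits of the RFX complex through which Nlrc5 and Ciita reach DNA. Rfx5 was not well above background in EpiSC and was at least 1.87-fold higher in NPC2, and Rfxank rose, with a log2 change of 0.39 ± 0.053. Atf1 fell (log2 -0.83 ± 0.043), as did Nfyc (-0.48 ± 0.077). Ciita, the class II transactivator, was well above background on 2 of 6 arrays and was not tested.

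The remaining immunoproteasome genes fell, and the constitutive core fell by less than 2-fold. All 5 tested genes of the inducible subunit, activator and assembly list fell in NPC1 and in NPC2 against EpiSC, beside 29% and 40.7% of all genes. The medians were -1.07 and -1.41. Psmb10, which replaces Psmb7, read 41486.7 and 42877.6 in EpiSC, 9402.0 and 10714.9 in NPC1, and 7183.1 and 6855.0 in NPC2. It fell 6.28-fold in NPC2 against EpiSC (log2 -2.65 ± 0.056 SE, limma adjusted p = 1.1e-05). Psme1 and Psme2, the subunits of the PA28 activator, fell 2.67-fold (-1.41 ± 0.043) and 3.20-fold (-1.68 ± 0.074), and Psme3, of a nuclear activator, fell 1.41-fold (-0.50 ± 0.056).

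Of 14 constitutive core genes, 12 fell in NPC2 against EpiSC and 4 in NPC1, beside 40.7% and 29% of all genes. In either, 0 passed 2-fold. The list's median was -0.39 in NPC2 and -0.16 in NPC1. The largest falls in NPC2 were those of Psma5 (-0.61 ± 0.056), Psmb4 (-0.52 ± 0.081), Psma3 (-0.48) and Psma4 (-0.47). The constitutive partners of the inducible subunits had small changes: Psmb5 fell (log2 -0.33 ± 0.051), a call lost in the authors' deposited table. Psmb6 fell (log2 -0.21 ± 0.045), as did Psmb7 (-0.25 ± 0.079), and their signs turned, for Psmb6 in the authors' deposited table and for Psmb7 under quantile normalization. Those calls were lost in 5 and 7 of 13 alternatives, among them, for both genes, without EpiSC replicate A, without EpiSC replicate B and without NPC2 replicate A, and for Psmb7 also without NPC2 replicate B. The number of core genes that fell in NPC2 ranged from 7 to 12 over all alternatives. Falls were also called among 10 housekeeping genes under the same scaling: 6 fell and 0 rose in NPC2 against EpiSC, and 1 fell in NPC1.

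**Figure D4:**
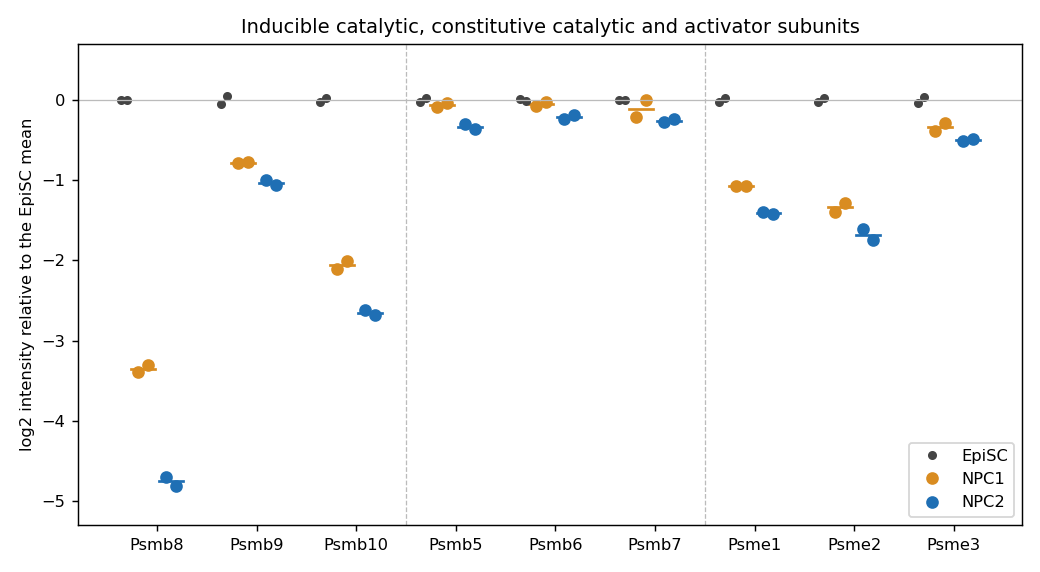
Scaled log2 intensity relative to the EpiSC mean of the inducible catalytic subunits (Psmb8, Psmb9, Psmb10), the constitutive ones they replace (Psmb5, Psmb6, Psmb7) and the activator subunits (Psme1, Psme2, Psme3); points are single arrays and lines NPC1 and NPC2 means. Psmb8 lies at a mean of -4.75 and Psmb10 at -2.65 in NPC2, while Psmb5 lies at -0.33.

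Among 12 other genes of peptide loading and trimming, 9 fell and 0 rose in NPC2 against EpiSC (limma, also 0 at an unadjusted p under 0.05), with a median of -0.44, and 6 fell in NPC1. This stood beside 40.7% of all genes that fell and 28.3% that rose in NPC2, and 29% that fell in NPC1. The absence of rises in NPC2 depended on the scaling: 2 rose in the authors' deposited table and 1 under quantile normalization, where 7 fell in each. Erap1, the aminopeptidase that trims peptides in the endoplasmic reticulum, read 65.2 and 58.7 in EpiSC, 6.6 and 6.0 in NPC1, and 7.7 and 6.8 in NPC2. It was not well above background in the neural plate condition and was at least 7.16-fold lower in NPC1 and at least 7.21-fold lower in NPC2 than in EpiSC. Tapbpl, a peptide editor related to tapasin, fell 6.15-fold in NPC2 against EpiSC (-2.62 ± 0.062, limma adjusted p = 1.3e-05). The general chaperone Calr fell (log2 -0.57 ± 0.058), as did the disulphide isomerase Pdia3 (-0.46 ± 0.046). Canx fell (log2 -0.25 ± 0.065), with a sign that turned under quantile normalization and a call lost in 6 of 13 alternatives, among them without any 1 of the 4 arrays compared. Ide, a peptidase, fell (log2 -0.69 ± 0.052).

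Of the 14 class I and class I-like heavy chains besides H2-D1, 10 fell and 1 rose in NPC2 against EpiSC, with a median of -0.40. In NPC1, 5 fell and 2 rose. Among all genes, 40.7% fell and 28.3% rose in NPC2, and 29% fell and 21.3% rose in NPC1. H2-K1, the other classical chain, read 9049.5 and 9319.1 in EpiSC, 8048.8 and 8622.8 in NPC1, and 7342.7 and 7304.2 in NPC2, and fell (log2 -0.39 ± 0.043) in NPC2 against EpiSC (limma adjusted p = 0.00099). H2-T23, the non-classical Qa-1 chain, fell (log2 -0.50 ± 0.073). Larger falls were those of H2-M3, which presents formylated peptides (-1.97 ± 0.05), H2-T10 (-1.28 ± 0.093) and the iron regulator Hfe (-1.28 ± 0.33, a call lost without EpiSC replicate A or without EpiSC replicate B). Cd1d1, which presents lipids, rose to 354.5 and 359.4 in NPC2, against 127.3 and 129.7 in EpiSC (1.41 ± 0.043, limma adjusted p = 2e-05).

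MHC class II genes took another direction. Of 7 tested, 5 rose and 0 fell in NPC1 (limma, also 0 at an unadjusted p under 0.05), and 4 rose and 2 fell in NPC2, both against EpiSC, with medians of 0.75 and 0.35. All genes rose in 21.3% and fell in 29% of cases in NPC1, and in 28.3% and 40.7% in NPC2. Over the 6 class II genes well above background on all 6 arrays, 4 rose and 0 fell in NPC1, and 3 rose and 2 fell in NPC2, with medians of 0.56 and 0.19. H2-Ab1, a class II beta chain, read 336.5 and 327.9 in EpiSC, 589.4 and 693.9 in NPC1, and 1024.9 and 922.1 in NPC2 (log2 1.49 ± 0.078 in NPC2 against EpiSC, limma adjusted p = 8.8e-05). H2-Oa rose by 1.02 ± 0.08, H2-Eb2 was at least 2.55-fold higher, and H2-DMb1, named after its value was seen, rose by 0.35, a call lost without EpiSC replicate B or NPC2 replicate A. H2-DMa, a chain of the peptide exchange factor, fell (log2 -0.74 ± 0.097). The alpha chain H2-Aa was well above background on 0 of 6 arrays. Without the filter on dim probes the class II median was 0.06 in NPC1 and 0.02 in NPC2 against EpiSC, and with normexp correction it was 0.24 and 0.15.

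The NF-kB factors and inhibitors differed between the days. Of 10 tested, 4 rose and 1 fell in NPC1, and 2 rose and 7 fell in NPC2, with medians of 0.17 and -0.45 against EpiSC. For all genes, 21.3% rose and 29% fell in NPC1, and 28.3% rose and 40.7% fell in NPC2. Nfkbie, an inhibitor, rose by 1.72 ± 0.07 in NPC2 against EpiSC. Tnfaip3, the feedback inhibitor A20, fell (log2 -1.50 ± 0.09), as did Nfkbib (-0.81 ± 0.054). Nfkbia, the inhibitor IkB-alpha, read 2451.4 and 2634.9 in EpiSC, 3730.7 and 3922.2 in NPC1, and 1269.0 and 1247.6 in NPC2. It was the highest in NPC1 and the lowest in NPC2, with no overlap between groups. Of 10 nucleic acid sensing genes, 4 fell and 1 rose in NPC2 against EpiSC, beside 40.7% and 28.3% of all genes. The falls, a share near that of all genes, were those of the adaptors Ticam1 (-0.87 ± 0.072) and Myd88 (-0.51 ± 0.054), the kinase Tbk1 (-0.78 ± 0.077) and the DNA sensor Cgas (-0.57 ± 0.1).

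Between the days, 83 of the 163 pathway genes fell and 18 rose in NPC2 against NPC1, beside 26.6% and 20.8% of all genes. In the type I interferon list 20 fell and 4 rose, with a median of -0.55, and in the interferon-gamma list 11 fell and 0 rose (limma, also 0 at an unadjusted p under 0.05), also with a median of -0.55. After normexp background correction those medians were -0.25 for the type I list and -0.30 for the interferon-gamma list. Of the immunoproteasome list 3 of 5 fell (log2 change -0.59 for Psmb10, -0.35 for Psme1 and -0.34 for Psme2, the last lost under quantile normalization and without NPC1 replicate B or NPC2 replicate B). This comparison shares its NPC2 arrays and its NPC1 arrays with those against EpiSC above.

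Markers of other cells that could contribute class I and interferon genes were read on the same arrays. Of 12 leukocyte markers, 8 were tested, of which 2 rose and 1 fell in NPC2 against EpiSC, and Lyz2, Spi1 and Tyrobp were well above background on 0 of 6 arrays. Their summed intensity was 8484 to 9220.3 in NPC2 and 7979.0 to 8810.3 in NPC1, against 6450.1 to 6937.1 in EpiSC, and their part in the results was not tested. Of 12 fibroblast and feeder markers, 9 were tested, of which 4 rose and 3 fell in NPC2 against EpiSC, with sums of 4967.2 to 5253.2 in NPC2 and 3142.6 to 3341.2 in EpiSC, and Lum and Fap on 0 arrays. Of 7 trophoblast markers, 5 were tested (Eomes, Tfap2c, Krt7, Plac1 and Hand1), of which 4 fell in NPC2 against EpiSC. Their sums were 452.1 to 456.6 in NPC2 and 1944.2 to 1989.8 in EpiSC. The other 2 were too dim to test: Cdx2 was well above background on 0 arrays and Elf5 on 1. The part of such cells in the result was not tested. Beside these marker counts, 40.7% of all genes fell and 28.3% rose in NPC2 against EpiSC. Of 7 endothelial markers 2 were tested and 0 passed by limma (0 at an unadjusted p under 0.05).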

How the data were processed

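Per the file headers, the deposited scanner files were made with Agilent Feature Extraction 10.10.1.1 (protocol GE1_1010_Sep10) on array design 028005. The authors' deposited intensity of each spot is linear and background-subtracted, with no normalization from array to array. A second deposited table gives it multiplied by 1 constant per array (2.10 to 2.41), whose origin the sources used here do not give. Control spots and spots flagged as outliers were dropped and spots of a probe averaged, which left 55646 probes, 26744 of them named through their RefSeq accession (GRCm38.p6 names alone). Tests used log2 intensity after subtraction of the 75th percentile of its array. For each gene the brightest probe was taken, among those well above background on each array of some group: 33532 probes and 14772 genes. One limma 3.58.1 fit (R 4.3.3, lmFit and eBayes, two-sided, 3 residual and 1.9 prior degrees of freedom) held all 6 arrays, with Benjamini-Hochberg adjustment over all genes at 0.05; its standard errors are moderated. The script was tested on simulated data.

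The 9 genes and all lists were chosen with earlier results of these data known. Genes named were the 9, a fixed set of known pathway genes, up to 4 genes of each list with the largest called change in NPC2 against EpiSC, and those said to be named by sight. Alternatives were normexp background correction, median and quantile normalization, the deposited value table, no filter and a stricter filter on dim probes, the mean of a gene's probes, fits of 2 groups, the culture letter as a block, and leaving out each array. Mx1, Mx2, H2-L and a few other listed genes had no named probe and were not analysed here. Some listed genes are not reported here.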

Additional observations from a re-analysis of the deposited data

Results flagged for a closer look

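Several pathway genes stood above EpiSC in NPC1 and below it in NPC2, each call past the limma test in both comparisons. That choice fixes the sign of the difference between NPC2 and NPC1, so it is given as a value and was not tested. Cxcl10, a chemokine of the interferon-gamma list, read 1203.6 and 1384.0 in EpiSC, 2070.1 and 2257.4 in NPC1, and 182.8 and 171.5 in NPC2, a log2 change of -3.68 for NPC2 against NPC1. Nfkbia had a change of -1.68 between those groups, Cd74, the class II invariant chain, one of -1.45, Socs3, a JAK-STAT feedback inhibitor, one of -1.16, and Nfkb2 one of -1.11. H2-Q2, a class I chain, had a change of -0.57, but its rise of 0.17 in NPC1 against EpiSC was lost in 9 of 13 alternatives. The rise of Socs3 in NPC1 was lost without EpiSC replicate B, and the fall of Nfkb2 in NPC2 was lost in the authors' deposited table. Nlrc5 showed the same order by its brighter probe, with a log2 difference of -1.21 for NPC2 against NPC1, which ranged between -1.35 and -0.50 over the alternatives; both NPC1 arrays lay above and both NPC2 arrays below the EpiSC arrays. That difference was not tested, because Nlrc5 was chosen with these values known.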

How the results depend on the processing

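With 2 arrays a group, alternatives moved counts more than the directions of calls. The number of genes called in NPC1 against EpiSC was 7434, and leaving out single arrays gave 4880 (without EpiSC replicate B) to 6460. Pathway genes that rose in NPC2 against EpiSC numbered 32 in the authors' deposited table, against 21, and those that rose in NPC2 against NPC1 numbered 10 without the filter on dim probes and 8 (without NPC2 replicate A) to 15 without single arrays, against 18; without NPC2 replicate B it was 10. Besides B2m, H2-D1 and Tap1, signs turned for 5 named genes tested in NPC2 against EpiSC, among results that passed in either setting. In the deposited table they turned to 0.0235 for Actb, 0.00752 for Irf9 and 0.0107 for Psmb6. Under quantile normalization they turned to 0.00352 for Canx and 0.0133 for Psmb7. These scalings shift all genes. Over 249 tested results and 3207 alternative values, 2944 kept their side of the threshold, 209 fell short of it and 49 newly passed. Direction was compared only where a result passed in the main fit or the alternative. Turns of sign among values that passed in neither are not counted. The differences of the 9 genes moved by more than the replicate spread in 87 of 270 values. Leaving out 1 of 2 arrays cannot move a difference beyond that spread. The leave-one-out values among the 270 were therefore unmoved by construction, and all 87 came from the other alternatives. The sources used here do not say whether an equal culture letter marks samples handled together. Deviations of equal letters correlated at 0.008 for NPC1 with EpiSC, 0.007 for NPC2 with EpiSC and -0.045 for NPC2 with NPC1. No shared effect of the letters was seen. The replicate block gave, in the same order, 6867, 9873 and 6477 calls, against 7434, 10198 and 7014, and 78, 106 and 72 pathway falls. Dim probes (Nlrc5, Irf1's second probe, Irf7) limit what can be read of those genes.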

Other observations

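A few further genes were read after their values were seen. Icam1, an adhesion molecule of the interferon-gamma list, stood at 11.1 and 12.2 in NPC2, against 58.9 and 50.3 in EpiSC, and fell 4.89-fold (limma adjusted p = 4.8e-05), while in NPC1 its change of 0.17 did not pass. Usp18, which removes Isg15 from proteins and dampens the type I receptor, fell 1.79-fold in NPC2 against EpiSC (limma adjusted p = 0.00016). Tyk2, the kinase of Ifnar1, rose 1.46-fold in NPC2 against EpiSC (limma adjusted p = 0.002).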
